A study of Mus musculus with 51 samples.

Results

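The change from the metaphase II (MII) oocyte to the 1-cell embryo made by in vitro fertilisation (IVF) was measured on 6 Affymetrix mouse arrays, 3 of single MII oocytes and 3 of single IVF embryos taken 16 h after sperm were added. They belong to a series of 51 arrays that follows IVF embryos (3 a stage) and Sertoli cell nuclear transfer clones (5 a stage) up to the blastocyst. All probe sets with exactly 1 gene symbol entered, and each of 18193 genes was represented by the one with the largest SD over the 51 arrays. The oocytes came from B6D2F1 mice and the IVF embryos from B6D2F1 × B6D2F1 matings. The cloned embryos, used below only to place the named genes, had B6CBF1 donor nuclei in B6D2F1 oocytes and were activated without sperm. All embryos were cultured in KSOM medium under low oxygen. Each array holds 1 cell or embryo, so the p-values measure the spread between single oocytes or embryos. In the main test that spread was pooled over the oocytes and all IVF stages up to the blastocyst. It is therefore not the spread of the compared oocytes and 1-cell embryos alone. Whether the oocytes and embryos came from separate females is not given in the sources used here.

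The MII oocyte is arrested in the second meiotic division by cytostatic factor, in which the kinase Mos and the anaphase inhibitor Emi2 (gene Fbxo43) keep cyclin B and Cdk1 active. Sperm entry starts calcium waves that end the arrest, and the zygote then forms pronuclei, copies its DNA and degrades stored maternal mRNA. Transcription is silent in the full-grown oocyte and resumes weakly in the late 1-cell embryo, and many stored mRNAs are activated in the meantime by lengthening of their poly(A) tails.

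The deposited log2 values are relative to a baseline of each probe set, so a value of 0 is near the middle of the 51 arrays and only differences between arrays can be read. Each unit of difference stands for 2-fold. The amplification kit named in the labels primes from the poly(A) tail, so a longer tail and more RNA cannot be told apart, nor can a gene's share and the amount of RNA in the cell.

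The 6 arrays separated cleanly by stage. Over all genes, the correlation between arrays was 0.966 to 0.970 among oocytes, 0.952 to 0.956 among IVF 1-cell embryos and 0.747 to 0.764 between the groups, as a description across genes. The 10 oocyte markers averaged 5.72 to 5.84 on the oocyte arrays and 5.20 to 5.77 on the IVF 1-cell arrays, against -2.26 to -2.08 on the IVF blastocyst arrays, so both groups carried the labelled oocyte signature. Several manufacturer control probe sets also differed between the groups. The hybridisation controls, bacterial RNAs added in fixed amounts, were at -0.47, -0.77 and -0.80 with oocytes and 0.53, 0.71 and 0.79 with embryos (exact permutation p = 0.1, two-sided, the smallest that 3 against 3 allows). The 3′ minus 5′ difference of the Actb and Gapdh control sets was 0.08, -0.37 and -0.21 in oocytes and -0.46, -0.96 and -0.54 in embryos. The 3′ probe set for 18S ribosomal RNA rose furthest, from -1.86, -1.71 and -2.04 to 4.99, 4.73 and 4.48. None of these sets overlapped between groups, and their part in the gene results was not tested, except that the fit was repeated with 2 of them as covariates. The poly(A) spike controls did overlap, at -0.27, -0.0099 and -0.60 with oocytes and -0.17, 0.0016 and 0.56 with embryos (exact permutation p = 0.2, two-sided). With the hybridisation controls as a covariate, 993 genes were higher and 843 lower, and after a further quantile normalization 1315 and 1026, fewer in both directions than reported below. Those hybridisation controls split the oocyte arrays from the embryo arrays, so the covariate runs with stage. A call lost with it is not read as a weaker effect.

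**Figure D1:**
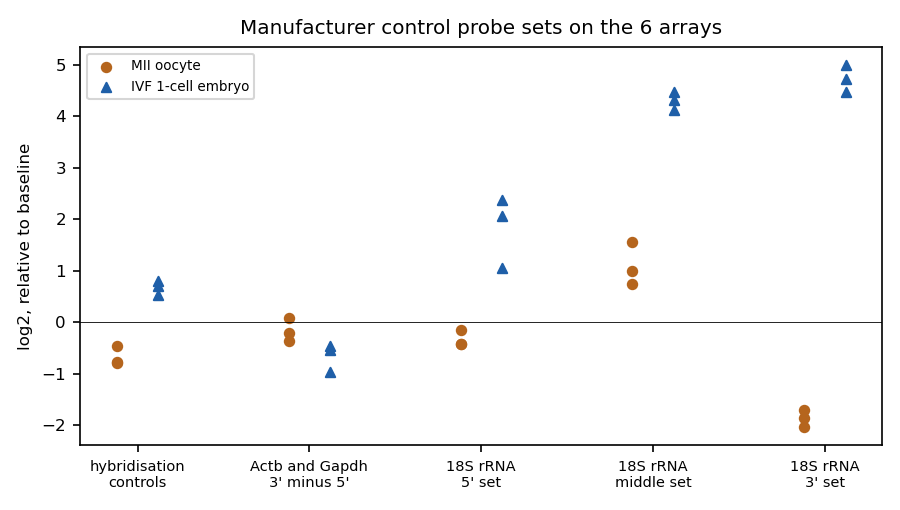
Log2 values relative to each probe set's baseline (vertical axis) for manufacturer controls on the 3 MII oocyte arrays (circles) and 3 IVF 1-cell arrays (triangles). The groups do not overlap in any of the 5 measures, and the 18S rRNA 3′ set shows the widest gap, from about -1.87 to 4.73 on average.

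A large share of the transcriptome shifted across fertilisation. With limma and Benjamini-Hochberg adjustment over all genes, 2596 genes (14.3%) were higher and 2969 (16.3%) lower in the IVF 1-cell embryo at an adjusted p under 0.05. Among them 492 rises and 300 falls were of 16-fold or more, and the median difference over all genes was -0.02 with quartiles at -0.43 and 0.24. The 3 oocytes and 3 embryos did not overlap for 2439 of the higher and 2853 of the lower genes. Over all genes, called or not, embryos lay above all oocytes for 2990 and below all of them for 8483, so a gap without overlap was far commoner than a call among lower genes. Of 617 X-linked genes 64 were higher and 89 lower.

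**Figure D2:**
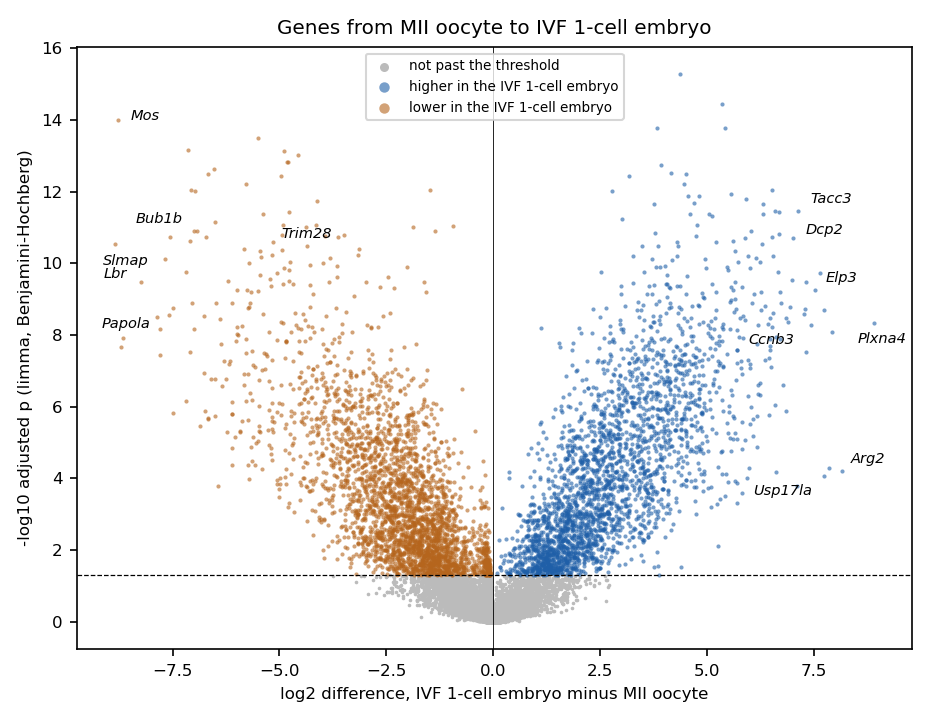
Each point is 1 of 18193 genes, with its log2 difference (IVF 1-cell embryo minus MII oocyte) on the horizontal axis and -log10 of limma's adjusted p on the vertical axis; the dashed line marks 0.05. Mos stands at the upper left at -8.77, and Plxna4 has the largest rise at 8.91.

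Most of the 12 largest rises were of genes near or below baseline in the oocytes. Plxna4, a semaphorin receptor on chromosome 6 (GRCm38.p6, 32144543 to 32588192), read 0.68, 0.01 and 0.04 in oocytes and 9.08, 9.26 and 9.11 in embryos. The difference was 8.91 ± 0.54 (estimate ± SE, adjusted p = 4.5e-09, limma), with the groups far apart, although its second probe set gave only 0.14. Arg2, the mitochondrial arginase, went from 1.19, -1.33 and -0.67 to 8.06, 7.85 and 7.78, and its other probe set rose by 7.34 as well. Car9, a carbonic anhydrase of the cell surface, went from -0.15, -0.26 and 0.04 to 7.82, 7.78 and 7.83. All 3 embryos agreed closely for these genes while oocytes stayed near baseline.

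Ccnb3, the B-type cyclin of the first meiotic division (chromosome X, 6979652 to 7041635), was at -0.03, 0.02 and 0.01 in oocytes and 7.65, 7.49 and 7.13 in embryos. Elp3, the catalytic subunit of the Elongator complex that has been linked to demethylation of the paternal genome in the zygote, read -5.61, -5.96 and -5.89 in oocytes and 1.51, 1.86 and 1.78 in embryos. Its difference of 7.53 ± 0.38 (adjusted p = 5.7e-10, limma) was accompanied by rises of 5.87 and 4.40 in its other probe sets. Dedd, a DNA-binding protein with a death effector domain, rose by 7.74 ± 0.44, and Znhit6, which helps assemble box C/D ribonucleoproteins, by 7.63 ± 0.35. Srpk1, a kinase of SR splicing factors, rose by 7.31 ± 0.53, but its second probe set gave -0.24. Fam98a, part of a tRNA ligase complex, rose by 7.31 ± 0.35, Fam160a1 by 7.30 ± 0.41 and Aven, an inhibitor of caspase activation, by 7.26 ± 0.42. Each of these groups was without overlap, which the naming rule required.

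Usp17la, a deubiquitinase gene of a multicopy family on chromosome 7 (104857016 to 104862667), lay at -0.44 in all 3 oocytes and at 7.56, 6.26 and 8.07 in the embryos. The difference of 7.74 ± 1.18 (adjusted p = 8.9e-05, limma) had the widest error but one among the rises, and with the hybridisation controls as a covariate its adjusted p was 0.0672. That error takes in later stages, such as the IVF 8-cell stage with an SD of 3.22, against 0.93 at the IVF 1-cell stage. Related copies of the family could share the probes of Usp17la.

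The largest falls fell into 2 kinds: mRNAs far above baseline in the oocyte that dropped towards or past it, and mRNAs near baseline that dropped far below it. Mos, the cytostatic factor kinase (chromosome 4, 3870658 to 3872105), belongs to the first kind, at 11.914, 11.996 and 11.531 in oocytes and 3.565, 2.886 and 2.674 in embryos. Its difference of -8.77 ± 0.16 had an adjusted p of 1.0e-14 (limma). Il1rap, the accessory chain of the interleukin-1 receptor, went from 8.20, 8.12 and 7.75 to 1.10, -0.01 and -0.01, though none of its other 4 probe sets passed the test.

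Papola, the nuclear poly(A) polymerase (chromosome 12, 105784677 to 105838949), is of the second kind, at 0.38, 0.36 and -0.35 in oocytes and -6.53, -6.87 and -8.97 in embryos. Of its other 4 probe sets, 3 also fell, with differences of -1.84, -4.12 and -6.21. Lbr, the lamin B receptor of the inner nuclear membrane, went from 1.497, 1.555 and 1.040 to -8.11, -6.29 and -6.23. Slmap, a membrane protein of the STRIPAK phosphatase complex, went from 0.75, 0.84 and 0.84 to -6.89, -8.16 and -9.04, with other probe sets at -0.11 and -2.26. Etnk1, the ethanolamine kinase of phospholipid synthesis, went from 0.00, 0.01 and 0.14 to -7.26, -7.63 and -7.66. Its other probe sets gave only -1.72, -1.14, -0.017 and -1.24, and of these just the last passed the test. Oocytes were tightly grouped for these 4 genes and embryos more scattered, except for Etnk1.

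Among the remaining falls, Alg10b, a glucosyltransferase of N-glycan synthesis, fell by 8.71 ± 0.61, while its other probe set gave -0.94 and did not pass. Gxylt1, a xylosyltransferase, fell by 7.80 ± 0.57. Leprot, a regulator of receptor traffic, fell by 7.87 ± 0.46, and its other probe sets gave -5.32 and -5.50. Cpne1, a calcium-dependent membrane-binding protein, fell by 7.80 ± 0.49, and Marchf7, a ubiquitin ligase, by 7.49 ± 0.42. Tbc1d14, a regulator of autophagy, fell by 8.66 ± 0.57 on the chosen probe set and gave -3.34 on another, while a further one rose by 3.67. Of the 24 genes, 13 had other probe sets, 9 had one that passed the test the same way, and Tbc1d14 alone had one that passed it the opposite way.

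**Figure D3:**
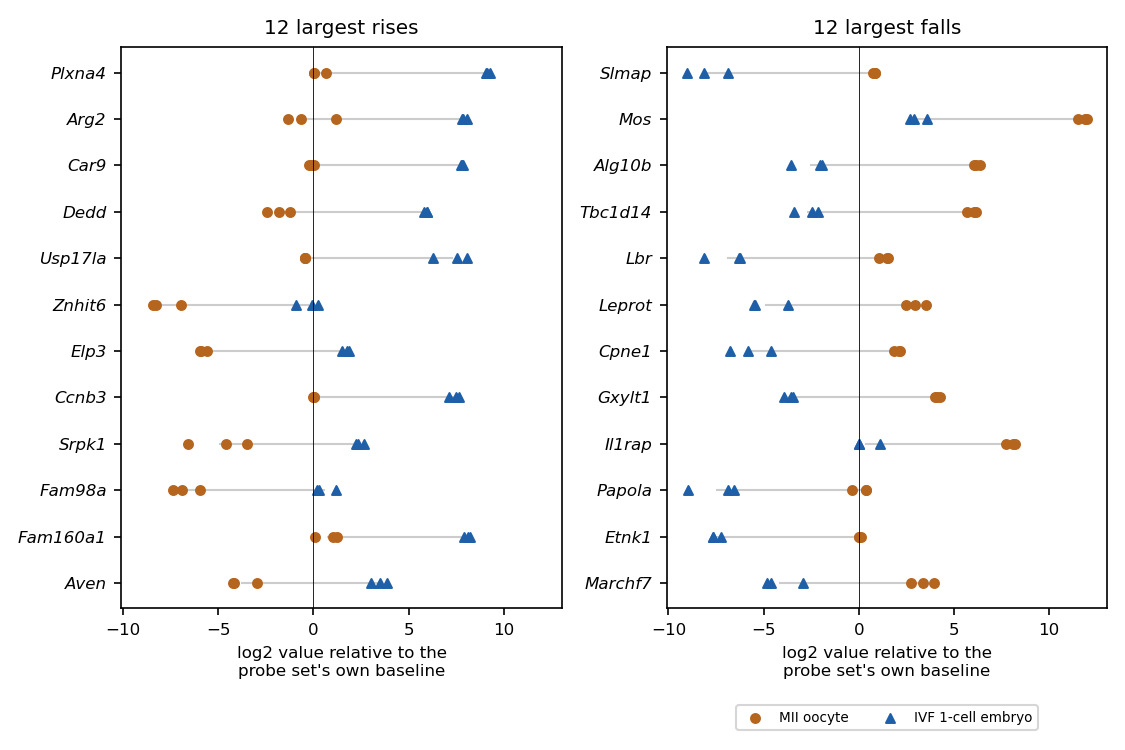
Log2 values relative to baseline (horizontal axis) of the 12 largest rises (left) and 12 largest falls (right) on each of the 3 MII oocyte arrays (circles) and 3 IVF 1-cell arrays (triangles); grey lines join the group means. Oocytes and embryos are apart in every gene, as the choice of genes required, and Plxna4, Car9 and Ccnb3 start at baseline while Znhit6, Fam98a and Elp3 start far below it.

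Promoter windows, the 250 bases before the start site, were given by RefSeq (GRCm38.p6) for 9 of the 12 rises and 11 of the 12 falls. Where a gene had several starts, the first listed was used. Windows are shown here for 2 rises and 2 falls because the sets differed in G+C content, with a median of 49.2% G+C and 5 CpG in the rises and 70.4% and 26 in the falls. The windows of the rises Fam160a1, Dedd and Aven (42.8%, 46.8% and 49.2% G+C) lay wholly inside the gene's coordinates. So did those of the falls Tbc1d14 and Etnk1 (59.2% and 74.8%). The medians without these internal starts were not computed. Capitals mark the TATA box letters TATAAA, the CCAAT box letters as named, and the GC box letters GGGCGG, each searched on both strands with overlapping matches kept. The windows are Usp17la at chr7:104856766-104857015 (+ strand), Fam160a1 at chr3:85746210-85746459 (- strand), Lbr at chr1:181842402-181842651 (- strand) and Etnk1 at chr6:143166980-143167229 (+ strand), each 5′ to 3′.
Usp17la: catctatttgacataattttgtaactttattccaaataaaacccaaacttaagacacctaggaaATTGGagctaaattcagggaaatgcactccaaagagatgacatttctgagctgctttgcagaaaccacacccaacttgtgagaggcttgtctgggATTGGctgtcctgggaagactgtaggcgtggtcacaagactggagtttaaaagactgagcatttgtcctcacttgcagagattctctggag
Fam160a1: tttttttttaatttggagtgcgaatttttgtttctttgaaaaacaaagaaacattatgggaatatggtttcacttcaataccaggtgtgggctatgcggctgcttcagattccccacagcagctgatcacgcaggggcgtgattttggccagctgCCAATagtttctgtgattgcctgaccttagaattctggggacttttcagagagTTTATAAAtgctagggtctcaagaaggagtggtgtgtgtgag
Lbr: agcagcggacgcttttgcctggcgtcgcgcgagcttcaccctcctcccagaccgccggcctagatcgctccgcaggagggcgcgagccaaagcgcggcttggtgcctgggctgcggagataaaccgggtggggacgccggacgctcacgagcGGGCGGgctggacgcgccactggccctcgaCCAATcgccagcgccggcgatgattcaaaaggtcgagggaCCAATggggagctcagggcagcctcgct
Etnk1: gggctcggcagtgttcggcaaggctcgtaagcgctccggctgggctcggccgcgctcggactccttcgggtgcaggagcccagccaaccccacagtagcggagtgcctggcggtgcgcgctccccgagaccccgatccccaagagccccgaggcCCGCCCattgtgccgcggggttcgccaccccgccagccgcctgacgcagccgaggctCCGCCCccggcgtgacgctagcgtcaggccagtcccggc

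Usp17la had 42.4% G+C and 1 CpG, and Fam160a1 42.8% and 4, whereas Lbr had 69.6% and 31 and Etnk1 74.8% and 31. The rises shown are the lowest of the 9 in G+C, which reached 64.0% in Fam98a. The falls ran from 54.0% (Cpne1) to 79.6% (Marchf7). TATAAA was found in 1 of the 9 rises (Fam160a1) and 0 of the 11 falls. It was in 13% of the 27025 genes with a window, 1 counted for each, and 9.01% of the 14368 measured genes among them. CCAAT was in 5 rises and 3 falls, against 34.5% of all and 35.7% of measured genes. GGGCGG was in 3 rises and 7 falls, against 32.9% of all and 50.0% of measured genes. Over the wider sets the contrast was small: the 389 windows of genes that rose at least 16-fold had a median of 58.8% G+C, the 234 that fell as far 62.8%, and all measured genes 57.6%. These are descriptions of letters, without a test.

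The shares over all genes, to set beside each list below, were 14.3% higher and 16.3% lower. They were 7.23% and 5.64% after quantile normalization, and 5.46% and 4.63% with the hybridisation controls as a covariate. The machinery of meiotic arrest and exit moved in both directions. Here and in the lists below, genes outside the naming rule are examples picked from those past the threshold; of these 50 genes, 32 kept the call after quantile normalization, 18 with the hybridisation controls as a covariate and 44 with only the 6 arrays, none with the opposite sign. Of 43 measured members 12 rose and 15 fell (27.9% and 34.9%), with a median of -0.31. Besides Mos, the falls took in Fbxo43, which encodes Emi2, from 5.40, 5.56 and 4.89 to 1.88, 0.08 and 2.69 (-3.74 ± 0.61, adjusted p = 0.000154, limma). Its call was lost with the hybridisation controls as a covariate (adjusted p = 0.388). Bub1b, the checkpoint protein BubR1, fell from 6.11, 5.95 and 5.77 to -1.15, -0.94 and -1.08, and both of its other probe sets fell too. Espl1, the separase that opens the cohesin ring, fell by 2.91, and the phosphatase subunit Ppp2r1a by 3.95.

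Among the rises were Cdk1, the kinase of M phase (4.67 ± 0.31), its activating phosphatases Cdc25b (4.03) and Cdc25c (3.36), and Ensa, a substrate of the Greatwall kinase (4.62). Ttk, the checkpoint kinase Mps1, rose by 3.71 and Bub1 by 5.47, but their second probe sets gave -0.02 and -1.52. Ppp2ca, a catalytic phosphatase subunit, fell by 5.05 on one probe set and rose by 1.74 on another. Fzr1, an activator of the anaphase-promoting complex, rose by 3.12, while Ube2s, a ubiquitin-conjugating enzyme that works with it, fell by 1.34 with 0.14 on its other probe set. Subunit Anapc1 had 1 probe set higher by 4.61 and 3 lower. With quantile normalization 9 members were higher and 8 lower (20.9% and 18.6%), and the balance over all genes turned the same way.

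Spindle and cytokinesis genes had 10 of 40 higher and 14 lower (25% and 35%, median -0.55), both above the shares over all genes. After quantile normalization 6 were higher and 2 lower (15% and 5%). Tacc3, which stabilises spindle microtubules, was the largest rise, from -4.25, -4.45 and -4.82 to 2.79, 2.66 and 2.40, and both other probe sets rose. Birc5, the survivin subunit of the chromosomal passenger complex, rose by 2.31 and Tubb2b, a beta-tubulin, by 5.57. The kinesin Kif11 fell by 3.98, Ckap5, a microtubule polymerase, by 2.46 (-0.11 and 0.19 on its other probe sets), and Ndc80, a kinetochore component, by 2.05.

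DNA replication genes, whose products act in the first S phase, split about evenly. Of 59, 18 rose and 20 fell (30.5% and 33.9%), with a median of -0.22, and 9 and 7 after quantile normalization. Prim1, the catalytic primase subunit, rose from -6.20, -6.19 and -6.45 to -2.01, -1.68 and -1.66, whereas its partner Prim2 fell from 1.94, 1.91 and 1.93 to -1.96, -3.61 and -2.73. Of the GINS subunits, Gins4 rose by 5.03 and Gins3 fell by 3.37. The other probe set of Gins3 gave 0.62, and its call was lost with the mean of both sets (-1.38, adjusted p = 0.0538) and with the hybridisation controls as a covariate (0.282). Rpa2 of the single-strand binding complex rose by 5.70, the flap nuclease Fen1 by 5.27 and Cdk2 by 4.67, with -0.089 on another probe set of Cdk2. The helicase subunits Mcm2 and Mcm4 fell by 1.59 and 1.35, and Ccne1, cyclin E1, by 2.90.

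Of 26 genes of the egg surface and of calcium release 9 were lower and 4 higher (34.6% and 15.4%, median -0.44). After quantile normalization 3 were lower and 1 higher, and the median was 0.097 with the mean of all probe sets. Astl, the cortical granule protease ovastacin that hardens the zona, fell from 7.82, 7.40 and 7.20 to 4.18, 4.86 and 3.26. Plat, the tissue plasminogen activator, fell from 8.71, 8.76 and 8.49 to 4.41, 4.76 and 4.36, with 0.10 on its other probe set, and Adam9, a membrane protease, fell by 4.55. Itpr3, a calcium release channel, fell by 2.72. In contrast, the sperm receptor Izumo1r (Juno) rose from 2.58, 1.62 and 0.00 to 6.39, 6.48 and 6.12, and Cd9, the tetraspanin needed for gamete fusion, rose by 3.56. For Izumo1r the adjusted p was 0.0948 with the hybridisation controls as a covariate.

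Maternal oocyte factors had 7 of 25 higher and 4 lower (28% and 16%, median -0.012). The lower share was about that over all genes (16.3%). The balance depended on the setting: 8 were higher and 9 lower with only the 6 arrays (32% and 36%). With the hybridisation controls as a covariate 1 was higher and 3 were lower. H1f8, the oocyte linker histone, fell from 10.33, 10.54 and 10.21 to 6.54, 6.06 and 5.02. Zar1, an RNA-binding protein needed at the oocyte-to-embryo transition, fell from 8.73, 9.10 and 8.84 to 6.39, 6.82 and 5.59, and the growth factor Gdf9 by 2.89. Its relative Bmp15 rose by 2.55, as did subcortical maternal complex members Ooep (2.59), Khdc3 (2.24), Padi6 (1.82) and Nlrp5 (1.58). The call of Nlrp5 was lost without oocyte replicate 2 or IVF replicate 1 (adjusted p = 0.0559 and 0.0537, limma). Nobox, an oocyte homeobox factor, rose from 4.20, 4.55 and 4.22 to 8.52, 8.20 and 8.30. Dppa3 (Stella), which protects maternal methylation, rose by 0.87, a call lost after quantile normalization (adjusted p = 0.623).

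Deadenylation and decay factors divided evenly, 10 of 37 higher and 10 lower (27% each way), but 6 and 1 after quantile normalization. Dcp2, the decapping enzyme, went from -1.85, -1.85 and -1.75 to 5.34, 5.25 and 4.98 (7.004 ± 0.27, adjusted p = 2.0e-11, limma), although its second probe set gave -2.03. Its activator Dcp1a rose by 3.58 on the chosen probe set but fell by 2.22 on another. Deadenylase subunits Cnot2, Cnot9 and Cnot10 rose by 2.98, 2.84 and 3.04, and the exonuclease Dis3 by 4.68. The other 3 probe sets of Cnot10 gave -0.021, -0.24 and -0.37, and its call was lost after quantile normalization (adjusted p = 0.111). Cnot8 fell by 2.24 and Cnot6 by 1.30, the latter call lost without oocyte replicate 3 or IVF replicate 2 (adjusted p = 0.101 and 0.0695, limma), and the exosome subunit Exosc3 by 2.05. Btg4, the adaptor that brings the deadenylase to maternal mRNA, was 8.11, 7.99 and 7.92 in oocytes and 7.68, 7.55 and 7.84 in embryos, a difference of -0.32 ± 0.39 that did not pass the test (adjusted p = 0.689, limma). The groups did not overlap, and the error takes in later stages, such as the IVF 2-cell stage with an SD of 0.91. The SD was 0.096 in oocytes and 0.14 at the IVF 1-cell stage.

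Genes that store mRNA and lengthen its tails included 10 of 30 higher and 7 lower (33.3% and 23.3%, median -0.15). Against the fall of Papola stood a rise of Papolg, a related poly(A) polymerase, by 5.02, and of Cpsf1 and Cpsf4l, of the cleavage and polyadenylation factor family, by 3.05 and 6.03. The other probe sets of Papolg and Cpsf4l gave -1.41 and -0.022 and did not pass, and the call of Papolg was lost after quantile normalization (adjusted p = 0.075). The Y-box proteins Ybx2 and Ybx3, which package stored mRNA, rose by 3.94 and 4.45. Poly(A)-binding Pabpc1 fell by 3.03, with 0.95 on another probe set, while the oocyte form Pabpc1l rose by 3.80. Cpeb4 rose by 5.36 on the chosen probe set, with -1.32 and -1.83 on its other sets, the second of which passed the test.

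Of 63 chromatin genes of the parental genomes 21 were lower and 9 higher (33.3% and 14.3%, median -0.35). The higher share equalled that over all genes. The balance depended on the setting: 5 were lower and 4 higher with the hybridisation controls as a covariate, 7 and 3 after quantile normalization, and the median was -0.048 with the mean of all probe sets. Trim28, the KAP1 corepressor that guards imprints, fell from 1.01, 1.18 and 1.08 to -3.49, -4.58 and -4.09, and its other probe set gave -4.29. Its zinc finger partner Zfp57 rose by 4.07. The histone variant H2ax fell by 4.28, and the arginine methyltransferases Prmt1 and Prmt5 by 3.36 and 2.19. The DNA methyltransferase Dnmt3a fell by 2.99 on the chosen probe set. Its other sets gave -2.265, -1.80 and -1.05, the last without passing the test, against a rise of 5.27 on another. The fall of Dnmt3a missed the threshold without oocyte replicate 1 or 3 or IVF replicate 2 (adjusted p from 0.058 to 0.102, limma). The methyltransferase cofactor Dnmt3l rose by 2.43 and Chaf1b, a histone chaperone subunit, by 2.78. Tet3, the oxidase of the paternal pronucleus, was 3.74, 3.16 and 2.66 in oocytes and 2.54, 2.67 and 1.85 in embryos, overlapping by 1 embryo, and did not pass (-0.83 ± 0.31, adjusted p = 0.0536, limma).

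Of 31 measured genes of zygotic activation and the 2-cell stage 21 did not pass the test. Of the rest, 8 were higher and 2 lower (25.8% and 6.45% of the 31, median 0.41). With only the 6 arrays 5 were higher and 5 lower, and with the hybridisation controls as a covariate 3 and 2. Apart from Usp17la and Arg2, Dppa2 and Dppa4, a pair of activators of the 2-cell programme that neighbour each other on chromosome 16, rose. Dppa2 went from -8.20, -8.14 and -9.56 to -1.26, -1.81 and -1.86, and Dppa4 from -8.15, -8.16 and -8.75 to -4.77, -4.66 and -5.30. Duxf3, the Dux factor, rose by 1.62, but by 0.96 without IVF replicate 3 and 2.26 without replicate 1, and its call was lost with only the 6 arrays (adjusted p = 0.181, limma) and with the covariate (0.678). Nelfa, a pausing factor, fell by 1.62 (adjusted p 0.0502 after quantile normalization). Zfp352, a 2-cell gene, gave 2.69 without passing the test (adjusted p 0.11).

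Genes of protein synthesis leaned upwards. Translation initiation factors had 17 of 33 higher and 8 lower (51.5% and 24.2%, median 0.98). They were led by Eif4h, a helicase cofactor, from -6.75, -6.05 and -7.004 to -1.10, -1.31 and -0.57. Eif4b, its partner, rose by 5.49 on the chosen probe set and on both others, and Eif3c by 5.54 although another of its probe sets fell by 2.86. Ribosomal proteins had 18 of 44 higher and 6 lower (40.9% and 13.6%, median 0.48). Among them Rpl7a rose by 4.15 and Rps24 by 3.26, whereas Rpl22 fell by 4.44. Nucleolar factors had 16 of 35 higher and 7 lower (45.7% and 20%, median 0.84). Among them Gnl3, nucleostemin, rose by 4.31, while Gar1, of the H/ACA ribonucleoproteins, fell by 1.46. After quantile normalization the counts were 10 and 2 for initiation factors, 13 and 7 for ribosomal proteins and 4 and 4 for nucleolar factors.

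Respiratory chain genes had 25 of 58 higher and 11 lower (43.1% and 19%, median 0.78). The succinate dehydrogenase subunit Sdhd rose by 4.46, with 0.40 on its other probe set, and Ndufv1 of complex I by 4.08. The proteasome had 16 of 36 higher and 10 lower (44.4% and 27.8%, median 0.29). Its ATPases Psmc1 and Psmc2 rose by 6.70 and 5.70 and the deubiquitinating subunit Psmd14 by 5.55, while the catalytic subunit Psmb6 fell by 2.27; the second probe set of Psmc1 gave -0.03, the other sets of Psmc2 4.88 and -0.02, and the median of the list was -0.14 after quantile normalization. Heat shock chaperones had 8 of 22 higher and 2 lower (36.4% and 9.09%, median 0.45). Hsp90aa1 rose from -4.79, -4.50 and -4.24 to 0.14, 0.50 and 0.30, but another probe set fell by 0.75. The J-domain cochaperones of Hsp70, Dnaja1 and Dnajb1, rose by 5.73 and 4.71, and the inducible Hspa1b by 3.85.

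Splicing genes leaned downwards, with 18 of 44 lower and 8 higher (40.9% and 18.2%, median -0.55). Yet 5 were higher and 2 lower with the hybridisation controls as a covariate, and 4 and 5 after quantile normalization. U2af1, which reads the 3′ splice site, fell by 2.83, Srsf11 by 2.95 and Srsf6 by 2.75. The other 3 probe sets of Srsf11 gave 1.12, -0.022 and -0.53 and did not pass. Cdc5l, a core spliceosome protein, rose from -9.88, -9.47 and -9.80 to -3.43, -2.97 and -2.67. Ubiquitin ligases of the egg had 13 of 41 lower and 7 higher (31.7% and 17.1%, median -0.43), but 5 and 4 after quantile normalization. Among them were the scaffold subunits Cul4a, which fell by 3.73, and Cul3, which fell by 3.60. The adaptor Skp1 rose by 2.60. With that covariate Cul3 (adjusted p = 0.0753) and Skp1 (0.169) missed the threshold.

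Glycolysis genes had 7 of 24 higher and 4 lower (29.2% and 16.7%), among them the aldolase Aldoa up by 3.65 and the pyruvate kinase Pkm by 2.88. Pluripotency factors had 2 of 24 higher and 3 lower, and immediate early genes 3 of 33 higher and 2 lower, both below the shares over all genes. Pou5f1 (Oct4) read -1.82, -1.43 and -2.34 in oocytes and -0.47, -0.05 and 0.12 in embryos (1.73 ± 0.31, adjusted p = 0.000339, limma), a call lost after quantile normalization (adjusted p = 0.283). Gbx2, a homeobox factor, rose from 2.46, 0.58 and 1.17 to 7.59, 7.51 and 7.82. Of the immediate early genes, Id2 rose by 4.87 and Egr1 by 2.37, and Klf10 fell by 2.97. With the hybridisation controls as a covariate Pkm (adjusted p = 0.354), Gbx2 (0.0553), Id2 (0.145), Egr1 (0.28) and Klf10 (0.627) missed the threshold, and the other probe sets of Id2 gave -0.0074 and -0.019.

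**Figure D4:**
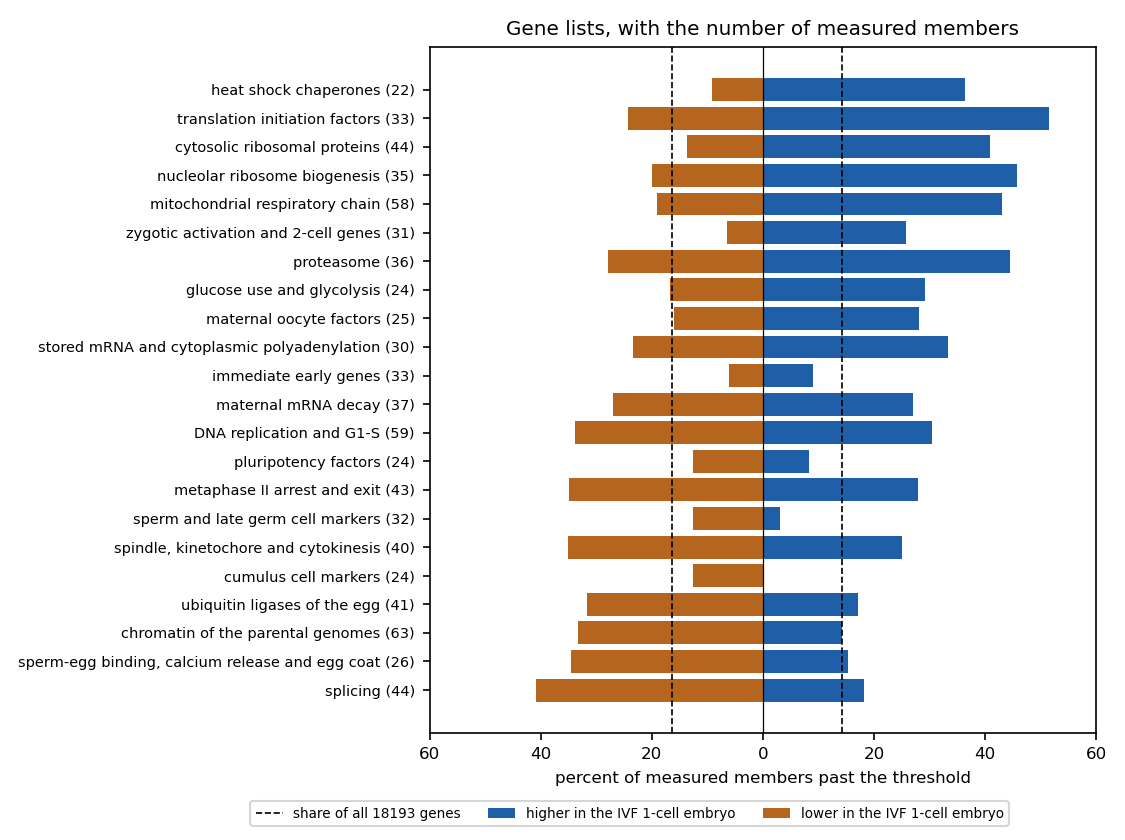
Share of measured members of each list that passed the threshold, higher in the IVF 1-cell embryo to the right and lower to the left (percent, horizontal axis), with the number of measured members after each name. Dashed lines give the shares over all genes, 14.3% higher and 16.3% lower; initiation factors reach 51.5% higher and splicing genes 40.9% lower.

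Markers of cells that could accompany the egg were mostly at baseline. Of 24 cumulus cell markers 15 lay within 0.5 of it on all 6 arrays. In embryos 0 were higher and 3 lower at an adjusted p under 0.05 (limma). These shares, 0% and 12.5%, were below the 14.3% and 16.3% over all genes. Among the falls, Kitl, the Kit ligand, went from 5.47, 5.56 and 5.29 to 0.15, 1.58 and 0.08. Ptgs2, a prostaglandin synthase, went from 2.63, 4.35 and 4.75 to -0.01, 0.11 and -0.01. Ptx3, a matrix pentraxin, fell by 0.36, with groups that overlapped. All 3 calls were lost with the hybridisation controls as a covariate (adjusted p from 0.0652 to 0.294), and the other probe sets of Kitl and Ptgs2 gave -0.29 to 0.088. The mean over the list was -0.31 to -0.18 with oocytes and -0.73 to -0.65 with embryos. The part of carried-over cumulus RNA in other falls was not tested.

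Of 32 sperm and late germ cell markers 24 lay within 0.5 of baseline on all 6 arrays, with the same limits. In embryos 1 was higher and 4 were lower (3.12% and 12.5%), below the shares over all genes, and none of these 5 changed by 2-fold. The 1 higher was Prm2, protamine 2, at 0.01, 0.00 and 0.38 in oocytes and 0.83, 0.00 and 1.45 in embryos, where the groups overlapped (0.63 ± 0.23, adjusted p = 0.0497, limma). Without IVF replicate 3 the difference was 0.29 and the call was lost, and without replicate 2 it was 1.01. Prm1 was at 0.06, 0.41 and 0.06 in oocytes and at 0.00, 0.02 and 0.00 in embryos, and Tnp2, transition protein 2, at 0.034, 0.027 and 0.031 in oocytes and -0.009, 0.014 and 0.006 in embryos. Tnp1, its relative, was at 0.43, 0.12 and 0.13 in oocytes and -0.06, 0.93 and 0.00 in embryos, so 1 embryo stood above the rest. The list averaged 0.08 to 0.13 with oocytes and 0.05 to 0.15 with embryos.

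The later stages, given as group means without a test, showed which shifts lasted. Papola returned from -7.46 at the 1-cell stage to 0.11 at the IVF 2-cell stage (32 h), Slmap from -8.03 to -0.47, Lbr from -6.88 to -0.69, Etnk1 from -7.52 to -0.69 and Cpne1 from -5.75 to 1.41. Among the rises, Car9 went from 7.81 to 1.63, Ccnb3 from 7.42 to 1.43 and Elp3 from 1.72 to -5.29. Other shifts lasted: Znhit6 went on from -0.27 to 2.20 and Fam98a from 0.55 to 1.07, Usp17la was at 7.53, Tbc1d14 went from -2.69 to -3.32 and Mos from 3.04 to 0.0044. Arg2 lay in between, at 7.90 and then 4.32. The dips of Papola, Slmap, Lbr, Etnk1 and Cpne1 thus occurred at 1 stage of the IVF series.

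**Figure D5:**
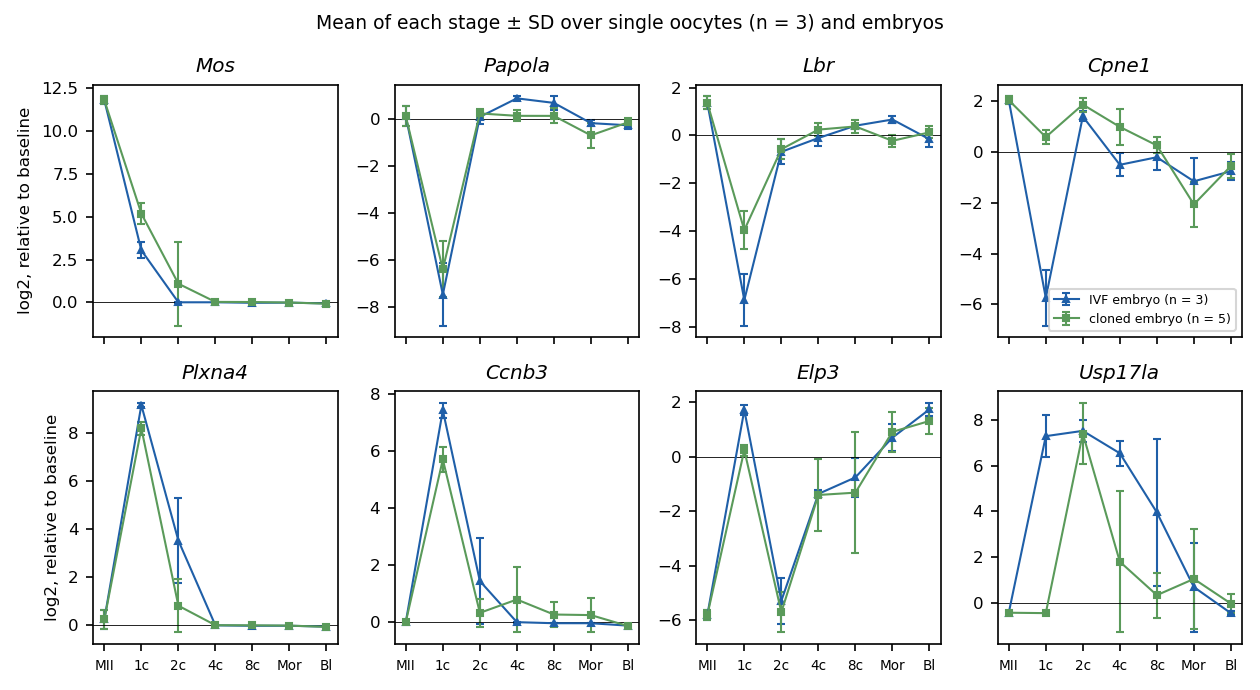
Mean log2 value relative to baseline ± SD (vertical axis) of 8 genes from the MII oocyte (n = 3) through the 1-cell, 2-cell, 4-cell, 8-cell, morula and blastocyst stages of IVF embryos (triangles, n = 3) and cloned embryos (squares, n = 5). Papola, Lbr and Cpne1 dip at the IVF 1-cell stage, Plxna4 and Ccnb3 peak there, Elp3 is higher there than at both neighbouring stages, and Usp17la is at 7.30 in IVF and -0.46 in cloned 1-cell embryos.

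In cloned 1-cell embryos, which share the age but not the sperm, most of the 24 genes stood on the embryo's side of the oocyte, but short of the IVF value. Of the 24, 16 differed between IVF and cloned 1-cell embryos (limma, adjusted p under 0.05 over all genes, where 6.31% were called): 11 of the 12 rises were higher in IVF embryos and 5 of the 12 falls lower. The genes were chosen with the same 3 IVF embryos, which by itself leans the difference this way. Usp17la stood apart, at -0.46 in clones against 7.30 in IVF embryos (7.76, adjusted p = 0.00137), and so did Cpne1, at 0.59 against -5.75 (-6.34, adjusted p = 0.00234). Papola, at -6.38 in clones, and Etnk1, at -6.46, were within 1.08 and 1.06 of the IVF mean and did not pass. Mos was at 5.19 in clones, 2.15 above IVF embryos. Leaving out 1 IVF embryo lowered the 16 to 9 without replicate 2 and 10 without replicate 1. The hybridisation controls of the clone arrays ran from -1.02 to 0.50, below those of the IVF 1-cell arrays, and their part in these differences was not tested.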

How the data were processed

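Arrays were grouped by their titles into 3 MII oocytes, 3 IVF 1-cell embryos and, for 1 further comparison, 5 cloned 1-cell embryos. The log2 values were deposited by the authors after RMA, per the submitters' processing notes, with no version given. The base of the logarithm was taken from the values, and in 94.3% of the 45101 probe sets exactly 1 of 51 arrays was at 0, which shows centring for each probe set; the labels do not mention that step. After 64 manufacturer controls were set aside, a single gene symbol was given for 34945 probe sets, several for 932 and no symbol for 9160. Of those with 1 symbol 34741 matched RefSeq (GRCm38.p6) by gene identifier, and 9010 genes had more than 1. Detection calls were not used here, and arrays have no read depth, so their number limits the precision.

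The main test was lmFit and eBayes of limma 3.58.1, run in R 4.3.3, on the 21 oocyte and IVF arrays in 7 groups, with no covariate, filter or further normalization. P-values were adjusted by Benjamini-Hochberg over 18193 genes at a threshold of 0.05. Clones were compared in a fit of the 8 arrays of the 1-cell stage. The script was tested on simulated data. Named are the 12 largest rises and 12 largest falls past the threshold without overlap between groups, without Y-linked genes and without genes known only by a clone or locus number, up to 4 members per list with the smallest adjusted p, and 11 genes followed whatever their result; further list members are given as examples chosen after their values were seen. Ccnb1, one of the followed genes, was not matched to a probe set with 1 symbol and is not used here. The comparison, the genes and the 22 lists, written from general knowledge, were chosen with earlier results of these data known. Alternatives changed the arrays in the fit, scaling, probe set, filter, variance model, replicate block, covariates and replicates.

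Replicate numbers count single cells or embryos. The correlation of deviations between same-numbered oocytes and embryos was 0.018, -0.00013 and 0.021, so the numbers were not treated as pairs.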

Additional observations from a re-analysis of the deposited data

Results flagged for a closer look

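The following values stood out by the difference between IVF and cloned 1-cell embryos (limma, adjusted p under 0.05) in genes with a large change after fertilisation, on the log2 scale as IVF minus clone. Among the rises the difference was 0.97 for Plxna4, 1.18 for Car9, 1.39 for Dedd, 7.76 for Usp17la, 1.66 for Znhit6 and 1.47 for Elp3. It was 1.72 for Ccnb3, 1.60 for Srpk1, 1.65 for Fam98a, 1.78 for Fam160a1 and 1.89 for Aven. Among the falls it was -2.15 for Mos, -4.06 for Alg10b, -2.92 for Lbr, -6.34 for Cpne1 and -2.62 for Gxylt1.

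For Aven, replicate 3 of the cloned 1-cell embryos lay apart from the other 4 clones at 2.12. Chance alone sets a sample apart in some groups when many are looked at.

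The control probe sets for 18S ribosomal RNA, which are outside the gene comparison, were higher in IVF 1-cell embryos than in MII oocytes by 6.60 for the 3′ set, 3.21 for the middle set and 2.16 for the 5′ set, with no overlap between the 3 oocytes and 3 embryos.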

How the results depend on the processing

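Against 2596 genes higher and 2969 lower, the counts were 1315 and 1026 after a further quantile normalization, 993 and 843 with the hybridisation controls as a covariate, and 1601 and 1837 with the replicate number as a block in the 6 arrays. Of the 5565 genes called, 2331 were called the same way after quantile normalization and 1771 with the covariate, and 0 the opposite way in either. All other alternatives kept both counts within 1.5 times, including leaving out each array in turn (2377 to 2516 higher, 2537 to 2862 lower).

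The named genes that differed from clones numbered 16, against 0 with the replicate block and 9 to 14 when each array was left out in turn. The block changed no call among the 24 largest rises and falls; of all 112 named genes 16 lost the call with it. The numbers are not known to pair the samples, so a lost call is not read as a weaker effect. Under quantile normalization Arg2 (5.59, adjusted p 0.0504), and with the hybridisation covariate Usp17la (9.19, adjusted p 0.0672), missed the threshold; the cause was not tested.

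The probe set with the second largest SD gave the opposite sign for 21 named genes: Srpk1 -0.24, Tbc1d14 3.67, Plat 0.096, Ttk -0.021, Ppp2ca 1.74, Prkcd -0.28, Dcp2 -2.03, Cpeb4 -1.32, Chaf1b -0.027, Bub1 -1.52, Cep192 0.081, Rps24 -0.067, Atp5g1 -0.20, Psmc1 -0.026, Hnrnpd -0.77, Eif3h -0.032, Hsp90aa1 -0.75, Hspa4 -1.17, Id2 -0.0074, Pfkp -0.033 and Ptgs2 0.088. The 50 further list members given as examples kept their sign in the settings run except Anapc1, which had the opposite sign with the mean of all its probe sets. Signal over background was not judged.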

Other observations

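Probe sets of one gene often moved apart across fertilisation. Of 9010 genes with more than 1 probe set, 2021 had at least 2 that passed the test over all probe sets (limma), and in 605 of these (29.9%) some rose and others fell. In 190 genes a rise and a fall of at least 4-fold stood side by side. The genes named here were chosen after their values were seen. Atp2c1, the calcium and manganese pump of the Golgi, had 1 probe set higher by 7.29 ± 0.35 and another at -5.73 ± 0.34. Il17rd, a receptor that restrains FGF signalling, had 1 higher by 5.99 ± 0.87 and 1 at -6.70 ± 0.73, and Slc23a2, a vitamin C transporter, 1 higher by 3.79 ± 0.42 and 1 at -6.12 ± 0.59. Il6st, the gp130 cytokine receptor, had 3 probe sets higher, by up to 4.77, and 1 at -4.92.

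The control probe set for the B1 repeat, a short interspersed element, went from 0.90, 0.80 and 0.98 in oocytes to -1.44, -1.21 and -0.59 in IVF 1-cell embryos (exact permutation p = 0.1, two-sided, the smallest that 3 against 3 allows), without overlap. The B2 set was at -0.72, -0.46 and -0.61 in oocytes and at -0.67, -0.19 and -0.23 in embryos, where the groups overlapped.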
